A study of Arabidopsis thaliana with 8 samples.

Results

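The 10 genes described here are the 9 beta-tubulin genes of Arabidopsis thaliana, TUB1 to TUB9, and TUA1 (AT1G64740), an alpha-tubulin gene known for its transcripts in pollen. They were chosen by name and not by their signals, though earlier results of these data were known. The array design held 21 probes for them, and they are 10 of 25371 loci with a matched probe and 10 of 22252 genes tested. Each gene was represented by its probe with the highest mean signal, 7 genes had more than 1 probe, and every probe is reported. All 21 probes were well above background on all 8 arrays, so no member was left out by the filter on dim probes.

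The arrays, of the 1-colour kind read with the dye Cy3, measured total RNA of roots (4 arrays) and of flower buds (4 arrays) of accession Col-0. Both tissues came from untreated 6-week-old plants in hydroponic culture, with no transgene or mutant allele named, and each replicate was a pool of 8 to 10 plants. Whether a root pool and a bud pool came from the same plants was not stated. The comparison asks which of these genes give more transcript signal in roots and which in flower buds.

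Microtubules are hollow polymers of paired alpha- and beta-tubulin. In plant cells they form the cortical array, which guides cellulose deposition in growing walls, and the preprophase band, spindle and phragmoplast of dividing cells. Several genes encode each subunit, and their proteins are close to identical, and members are known to differ in where they are transcribed. In Arabidopsis, TUB1 is known for transcripts in roots, TUB9 and TUA1 for transcripts in pollen, and TUB6 for transcripts that decline in the cold.

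Values are the log2 of the processed signal minus the 75th percentile of the array, and differences are flower bud minus root, so a positive difference is higher in flower buds. A gene passed the test at an adjusted p under 0.05 in limma with Benjamini-Hochberg adjustment over all genes, and was called where the difference was also at least 2-fold. The 75th percentile of the signal was between 2218 and 3132 for roots and between 4149 and 4257 for buds, and 70.8% to 83.5% of probes were well above background. For the tissue labels, all 4 root markers and 6 of 6 root hair markers were called higher in roots, beside 25.2% of all genes. All 6 flower markers were called higher in buds, beside 29.8%. On all arrays of the other tissue, 0 root, 1 root hair and 2 flower markers were well above background. The other markers passed the filter on dim probes through 1 tissue alone, so their direction is no independent result. Correlations were taken across the 17950 genes well above background on all 8 arrays. Arrays of the same tissue had a Pearson's r of 0.973 to 0.995, and arrays of different tissues one of 0.550 to 0.582. The 8 arrays shared 1 slide, on which roots and buds occupied separate rows, and an effect of the row and of the tissue cannot be told apart. Root and bud replicates of the same number lay in the same column of the slide.

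Most tubulin genes differed between roots and flower buds by less than 2-fold. TUB7 was the 1 gene called, higher in flower buds at 2.09-fold, where 55.0% of all genes were called (29.8% higher in buds and 25.2% higher in roots). Without the minimum fold, TUB2, TUB3, TUB5 and TUB7 were higher in buds, 4 of 10 against 43.9% of all genes, and TUB1, TUB4 and TUB9 were higher in roots, 3 of 10 against 38.3%. In either direction 7 of 10 passed, against 82.1% of all genes. TUB6, TUB8 and TUA1 did not pass. The median absolute difference was 0.54 for the 10 genes and 1.19 for all genes, and the signed medians were 0.03 and 0.12. Unlike the members, all genes include some that were not well above background on every array. Of the 17950 genes well above background on all 8 arrays, tested alone, 8444 were called. The median SD between replicates was 0.19 for the members and 0.21 for all genes in roots, and 0.18 and 0.17 in buds. The values of the tissues did not overlap for 5 of the 10, TUB1, TUB2, TUB3, TUB4 and TUB7, against 79.1% of genes with all 8 values. In tissue RNA, fewer cells of a type and less transcript per cell cannot be told apart.

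**Figure D1:**
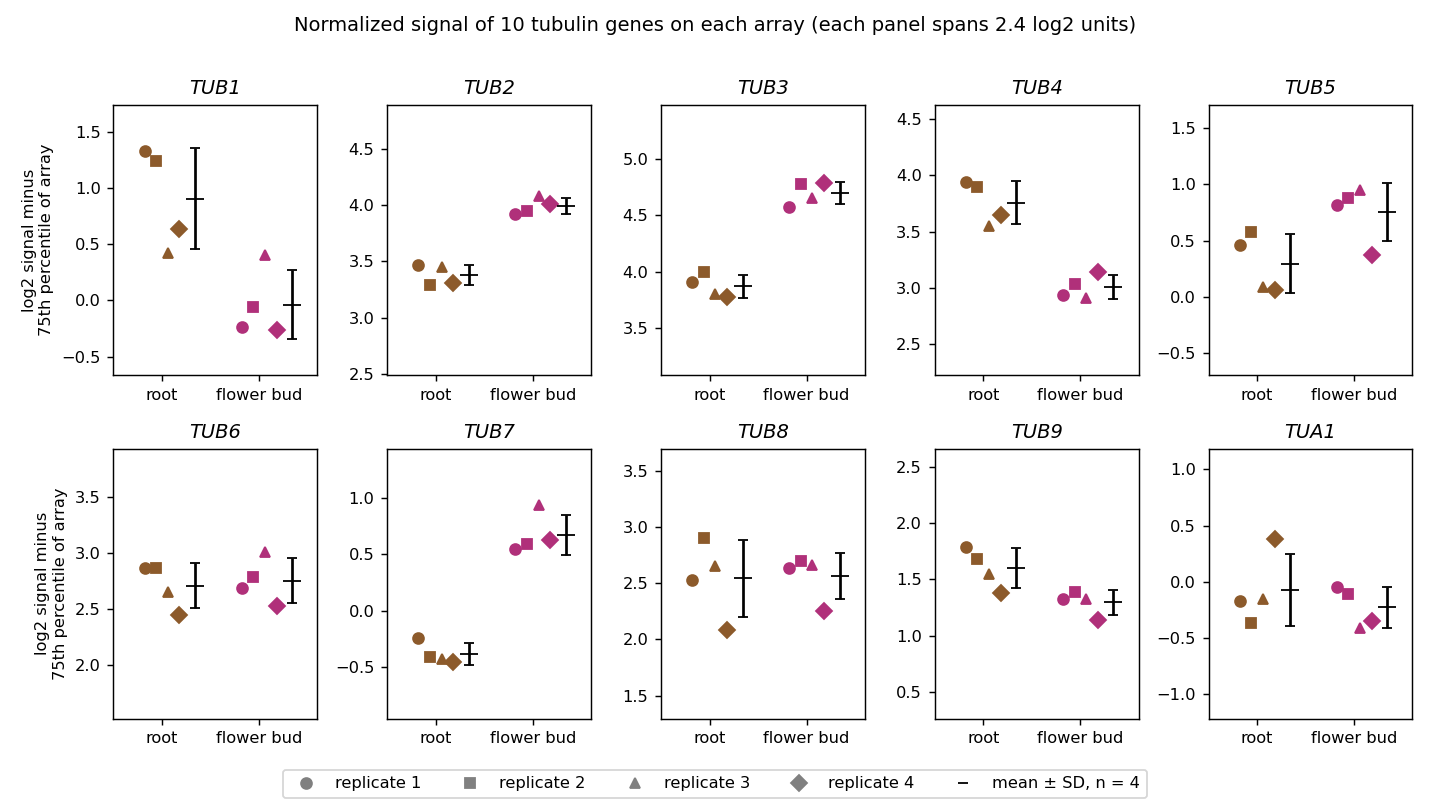
Normalized signal (log2, minus the 75th percentile of the array) of the chosen probe of each of the 10 genes on the 4 root and 4 flower bud arrays, with the mean ± SD (n = 4); panels have different origins but the same span, and levels of different genes are not comparable. TUB7, TUB3 and TUB2 lie higher in all buds than in all roots, TUB4 and TUB1 lower, and the tissues overlap for TUB5, TUB6, TUB8, TUB9 and TUA1.

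Of the genes higher in flower buds, TUB7 (AT2G29550), a beta-tubulin gene with 1 probe, had values, in the order of replicates 1 to 4, of -0.25, -0.41, -0.43 and -0.46 in roots and 0.55, 0.59, 0.94 and 0.62 in buds. Every bud value lay above every root value, and bud replicate 3 was the highest. The difference was 1.06 ± 0.11 (SE, n = 4 per tissue), with a 95% confidence interval of 0.81 to 1.32 and a limma adjusted p of 3.20e-05. The interval reaches below 2-fold: the difference was 0.94 with arrays centred on their median, 0.90 after normexp background correction and 0.98 without bud replicate 3, and TUB7 was then not called. With scaling on 5 reference genes (PP2AA3, SAND, CACS, TIP41L and UBC21) it was 1.44. On the main scale 4 of these 5 themselves passed as higher in roots, and their median difference was -0.46. Scaling on them therefore moves every difference towards buds.

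TUB2 (AT5G62690) and TUB3 (AT5G62700) are neighbouring genes with no protein-coding gene between them in the reference table. TUB3 read 3.91, 4.00, 3.80 and 3.77 in roots and 4.58, 4.78, 4.65 and 4.79 in buds. Its difference was 0.83 ± 0.09 (1.78-fold, limma adjusted p = 4.85e-05), and with scaling on the reference genes it was 1.21 and was called. TUB2 read 3.46, 3.29, 3.45 and 3.31 in roots and 3.93, 3.95, 4.09 and 4.01 in buds. Both genes thus had tissues that did not overlap and a small spread, with SDs of at most 0.10. The difference of TUB2 was 0.61 ± 0.08 (1.53-fold, limma adjusted p = 0.000179). Probes of near-identical copies can share signal, and the probe sequences were not used here, so the similar values of TUB2 and TUB3 cannot be assigned to either gene alone.

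TUB5 (AT1G20010) read 0.46, 0.57, 0.09 and 0.06 in roots and 0.82, 0.88, 0.95 and 0.37 in buds. Bud replicate 4 lay below root replicates 1 and 2, and the other bud values lay above all roots. The difference was 0.46 ± 0.17 (1.38-fold, limma adjusted p = 0.0367). It did not pass without root replicate 3 or 4 or bud replicate 1, 2 or 3, at adjusted p-values of 0.0781 to 0.0925, nor with arrays centred on their median (0.0860) or with the mean of both probes (0.165). With scaling on the reference genes it was 0.84 and passed (adjusted p = 0.00211).

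TUB1 and TUB4 were the members with the larger differences towards roots. TUB1 (AT1G75780) read 1.33, 1.24, 0.42 and 0.63 in roots, 0.90 ± 0.45 (SD, n = 4), and -0.24, -0.06, 0.40 and -0.26 in buds, -0.04 ± 0.31. The tissues were separated by 0.02, the gap between root replicate 3 and bud replicate 3. The difference was -0.94 ± 0.25 (1.92-fold, limma adjusted p = 0.00706), with a 95% confidence interval of -1.51 to -0.37. TUB1 was called, at -1.10, -1.03 and -1.09, without root replicate 3, root replicate 4 or bud replicate 3, and at -1.07 with arrays centred on their median. With scaling on the reference genes it was -0.56 and did not pass (adjusted p = 0.0594).

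TUB4 (AT5G44340), another beta-tubulin gene, read 3.94, 3.90, 3.55 and 3.65 in roots and 2.94, 3.04, 2.91 and 3.14 in buds. Every root value lay above every bud value. The difference was -0.75 ± 0.12 (1.69-fold, limma adjusted p = 0.000364), and on the reference scale it was -0.38.

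TUB9 (AT4G20890), known for transcripts in pollen, read 1.79, 1.68, 1.55 and 1.38 in roots and 1.33, 1.39, 1.32 and 1.14 in buds. Root replicate 4 lay among the bud values. The difference was -0.30 ± 0.11 (1.23-fold higher in roots, limma adjusted p = 0.0348), and it turned to 0.07 with scaling on the reference genes. It did not pass without root replicate 1, 2 or 3 or bud replicate 1, 3 or 4, at adjusted p-values of 0.0523 to 0.0882, nor after normexp (0.106) or quantile normalization (0.290).

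TUB6, TUB8 and TUA1 had differences near 0. TUB6 (AT5G12250) read 2.87, 2.86, 2.65 and 2.45 in roots and 2.69, 2.79, 3.00 and 2.53 in buds, a difference of 0.04 with a 95% confidence interval of -0.28 to 0.37 that turned to -0.08 with arrays centred on their median. TUB8 (AT5G23860) read 2.53, 2.90, 2.65 and 2.09 in roots and 2.63, 2.70, 2.67 and 2.25 in buds. Replicate 4 was the lowest for both genes in both tissues. The TUB8 difference was 0.02, with an interval of -0.41 to 0.45, and turned to -0.11 with arrays centred on their median. The limma adjusted p-values were 0.776 for TUB6 and 0.922 for TUB8. With scaling on the reference genes TUB6 was at 0.42 and passed (adjusted p = 0.0185).

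TUA1, the alpha-tubulin gene of pollen, read -0.17, -0.37, -0.15 and 0.38 in roots and -0.04, -0.11, -0.41 and -0.35 in buds. The tissues overlapped, and root replicate 4 was the highest of the 8 arrays. The difference was -0.15 ± 0.17 (interval -0.55 to 0.25, limma adjusted p = 0.435), and turned to 0.23 with scaling on the reference genes (adjusted p = 0.273). Markers of mature pollen were present in the same bud arrays. Of 10 in the list, CPK34 was not tested. All 9 tested were called higher in buds, against 29.8% of all genes, and 8 of them were well above background on no root array. None of the 9 was well above background on all root arrays. They thus passed the filter on dim probes through the buds alone, and their direction is no independent result. VGD1 and VGDH1, pectin methylesterase genes of pollen, were at least 860-fold and 305-fold higher in buds. The summed level of the list was 0.0252 to 0.0397 times the 75th percentile signal in roots and 4.95 to 20.8 times in buds. The median deviation of the pollen markers from their bud mean was 1.04, 0.57, -0.30 and -1.27 on replicates 1 to 4. TUA1 deviated by 0.19, 0.12, -0.19 and -0.12 on the same arrays, with the same signs but smaller sizes. It was lowest on bud replicate 3, and the pollen markers on bud replicate 4. In roots TUA1 deviated by -0.09, -0.29, -0.07 and 0.46. Whether TUA1 varies with the pollen markers was not tested. The 1 probe of TUA1 was not higher in buds although pollen markers were, and whether that probe also binds other transcripts was not tested.

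Probes of a gene mostly gave the same direction, with different sizes. Of the 21 probes, 4 were called (52.8% of all 36141 probes tested were called), 2 in each direction, and 15 passed the test against 80.5% of all probes. TUB4 had 3 probes, all higher in roots, at -0.75, -0.92 and -1.05, and the last of these (A_84_P812074) was called. The second TUB1 probe (A_84_P810453) read -1.24, -1.26, -1.69 and -1.61 in roots and -2.91, -2.90, -2.68 and -2.88 in buds. Its tissues lay well apart, and its difference of -1.39 ± 0.13 (limma adjusted p = 1.62e-05) was called where that of the chosen probe was not. The 4 TUB3 probes were all higher in buds, at 0.34, 0.60, 0.83 and 1.08, a spread of 0.74, and the largest (A_84_P68964, limma adjusted p = 2.29e-05) was called. The 2 TUB2 probes gave 0.46 and 0.61, and both passed.

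Of the genes with more than 1 probe, TUB6 and TUB5 had 1 probe that passed and 1 that did not. The other TUB6 probe (A_84_P20580) read 2.04, 2.25, 1.94 and 1.73 in roots and 1.39, 1.39, 1.61 and 1.09 in buds. These tissues did not overlap, and the difference was -0.62 ± 0.15 (limma adjusted p = 0.00452), against 0.04 for the chosen probe. With the mean of all probes TUB6 was at -0.29 and did not pass (adjusted p = 0.0916). The other TUB5 probe gave 0.14 and did not pass (adjusted p = 0.550), while the chosen one did. None of the 3 TUB8 probes passed, at 0.02, 0.02 and 0.25.

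**Figure D2:**
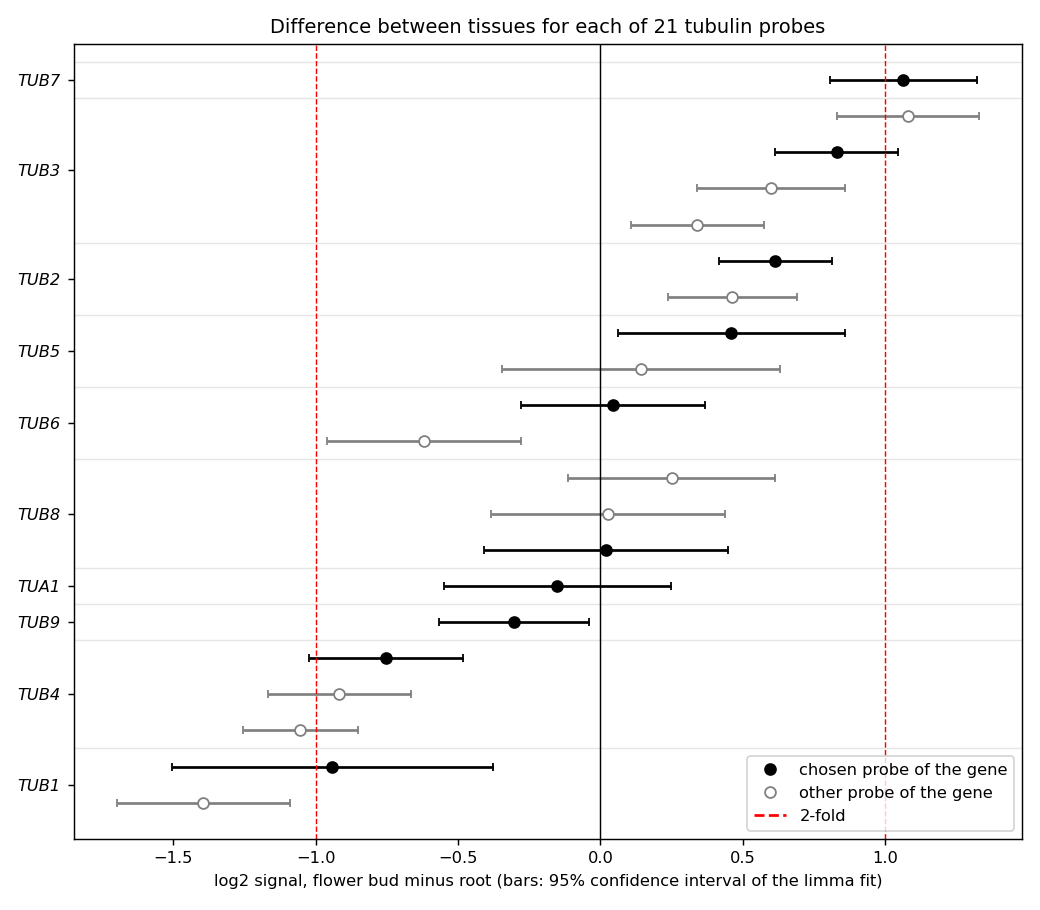
Difference (log2 signal, flower bud minus root) with its 95% confidence interval from limma for all 21 probes, grouped by gene in the order of the chosen probe, which is filled; dashed lines mark 2-fold. The probes of TUB3 and TUB2 all lie above 0 and those of TUB4 and TUB1 all below, while the other TUB6 probe lies at -0.62 and the chosen one at 0.04.

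Ordered by difference, the members ran from TUB7 through TUB3, TUB2, TUB5, TUB6, TUB8, TUA1, TUB9 and TUB4 to TUB1. A within-array difference between a pair of genes cancels the scaling of the array, and these were compared for the 9 pairs of neighbours in that order. For 8 of the 9 pairs the ranges of the tissues overlapped. The exception was TUB5 minus TUB6, at -2.56 to -2.29 in roots and -2.15 to -1.87 in buds. TUB9 minus TUB4 barely overlapped, at -2.274 to -2.001 in roots and -2.002 to -1.586 in buds, and its shift of 0.45 exceeded its SDs of 0.12 and 0.20. For the other pairs of neighbours the shift was 0.02 to 0.23. Between the ends of the order the separation was clear: TUB7 minus TUB1 was -1.65 to -0.85 in roots and 0.54 to 0.89 in buds, a shift of 2.01 that subtracting a constant from an array cannot alter. Because the order places the members by this contrast, these ranges describe them and were not tested.

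Within a tissue, members also varied between arrays. Bud replicate 4 was the lowest bud array for TUB5, TUB6, TUB8 and TUB9, and root replicate 4 was the lowest root array for the same 4 genes. These were 4 of 10 members, against 15.0% of all genes that were lowest on replicate 4 in both tissues. Both replicates 4 lay in the same column of the slide, and an effect of the pool and of the position cannot be told apart. The deviation of TUB8 from its tissue mean was -0.46 on root replicate 4 and -0.31 on bud replicate 4. TUA1 ran the other way in roots, at 0.46 on replicate 4. Over all genes the median deviation was between -0.06 and 0.03 on every array, and the other alpha-tubulins had medians of -0.21 and -0.18 on replicates 4. Markers of dividing cells did not share this pattern, with medians of -0.04 on root replicate 4 and 0.17 on bud replicate 4.

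**Figure D3:**
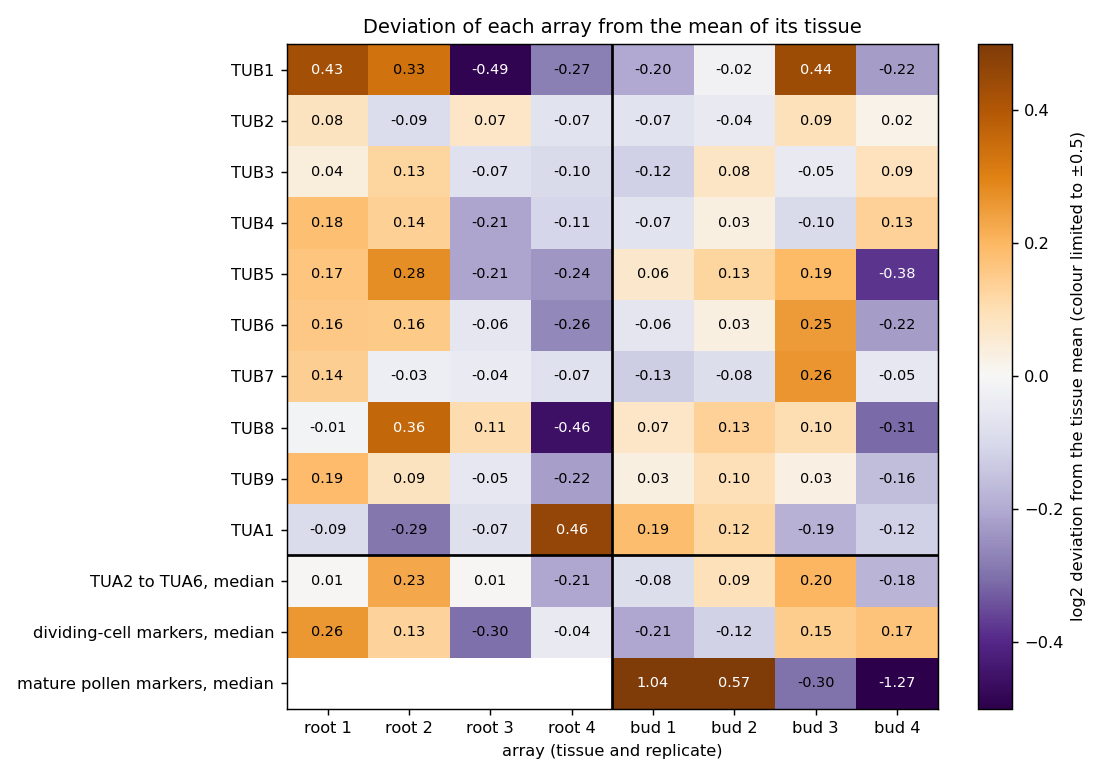
Deviation (log2) of each array from the mean of its tissue for the 10 genes and, as medians over lists, for TUA2 to TUA6, 8 markers of dividing cells and 9 of mature pollen (buds only); colour is limited to ±0.5 and the numbers are printed. TUB8 lies at -0.46 on root replicate 4 and -0.31 on bud replicate 4, and the pollen markers run from 1.04 to -1.27 across the bud arrays.

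Likeness of pattern was measured as the root mean square distance, over the 8 arrays, between 2 genes' deviations from their own means. The nearest gene that was not a member lay at a distance of 0.0353 for TUB2 and up to 0.130 for TUB1. Among members the nearest pairs were TUB6 with TUB8, at 0.156, and TUB2 with TUB3, at 0.160. The first search covered all other tested genes with a symbol and the second only the members. A smaller distance in the larger search is expected from its size, so these distances are not comparable. The gene nearest to TUB8 was TUA4, an alpha-tubulin gene, at 0.0855, which is named after its value was seen.

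Other genes of the microtubule system were called in both directions. The 5 other alpha-tubulin genes, which supply the partner subunit, had 0 calls, where 55.0% of all genes were called. TUA2 differed by 0.09, TUA3 by -0.26, TUA4 by 0.13, TUA5 by -0.27 and TUA6 by -0.09. None of the 5 passed limma at an adjusted p under 0.05, against 82.1% of all genes. However, 2 further TUA5 probes did pass, at -0.38 and -0.41. TUA3 and TUA5 are neighbouring genes and their probes may share signal. Tubulin folding cofactors, which assemble the heterodimer, had 0 of 6 called, against the same 55.0%. Their median was 0.14, beside 0.12 for all genes. PFI, cofactor E, at 0.46, and TTN1, cofactor D, at 0.40, passed the test without reaching 2-fold.

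Genes of nucleation had a median of 0.66, beside 0.12 for all genes. Of the 6, 5 passed the test, all higher in buds, where 82.1% of all genes passed and 43.9% passed higher in buds. The gamma-tubulin genes, whose products start new microtubules, were both called: TUBG1 (AT3G61650) at 1.33 ± 0.16 and TUBG2 (AT5G05620) at 1.19 ± 0.14 (limma adjusted p = 8.44e-05 and 7.75e-05). TUBG1 read -1.85, -2.54, -2.32 and -2.41 in roots and -1.06, -1.10, -0.77 and -0.87 in buds, with no overlap. Of 7 MAP65 genes tested of 9, which encode proteins that bundle microtubules, 4 were called, all higher in buds, where 55.0% of all genes were called and 29.8% were called higher in buds. MAP65-9, 1 of the 4, was well above background on no root array and is shown to be at least 1.96-fold higher, which is under the 2-fold minimum. The median of the list was 1.55 as fitted and 0.97 with MAP65-9 at that bound. MAP65-3, which acts in the phragmoplast during cytokinesis, was at 2.70 ± 0.17, and MAP65-2 at 1.87 ± 0.12.

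The 15 genes that organise microtubule arrays were split, with 3 called in each direction, 6 of 15 in all against 55.0% of all genes, and a median of 0.13. EB1C and EB1A, whose products follow growing microtubule ends, were higher in buds at 1.84 and 1.61. MAP18, which encodes a protein that destabilises microtubules, was higher in roots by a difference of -9.43 ± 0.67, and MAP70-5, which acts in xylem wall patterning, by -5.40 ± 0.16. All 8 markers of dividing cells were called higher in buds, against 29.8% of all genes, with a median of 1.80. The summed level of these markers was 4.86 to 6.74 times the 75th percentile signal in roots and 18.8 to 24.9 times in buds. Their part in the higher MAP65, EB1 and gamma-tubulin signals was not tested. The 9 beta-tubulins had a median of 0.04 in the same arrays.

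Genes of the reproductive actin cytoskeleton had larger fitted differences. Of 9, 7 were called higher in buds and 1 higher in roots, against 29.8% and 25.2% of all genes, with a median of 2.58. Only 4 of the 9 were well above background on all root arrays, and the others passed the filter on dim probes through the buds alone. The median is the fitted value of ACT4, which was well above background on 2 root arrays, so its size is uncertain. PRF5, a pollen profilin, was higher in buds by a fitted 7.05 ± 0.44, but 3 of its 4 root values were not well above background, so the size is uncertain. ADF7, a pollen actin-depolymerizing factor, was at least 71.0-fold higher in buds, a bound that takes the dimmest signal still above background as the root level wherever the probe itself was dimmer. ACT11, a reproductive actin gene, was lower in buds at -1.52 ± 0.14. TUA1 stood at -0.15 on the same scale. Part of this actin list was chosen for reproductive expression, so its direction is no independent result.

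**Figure D4:**
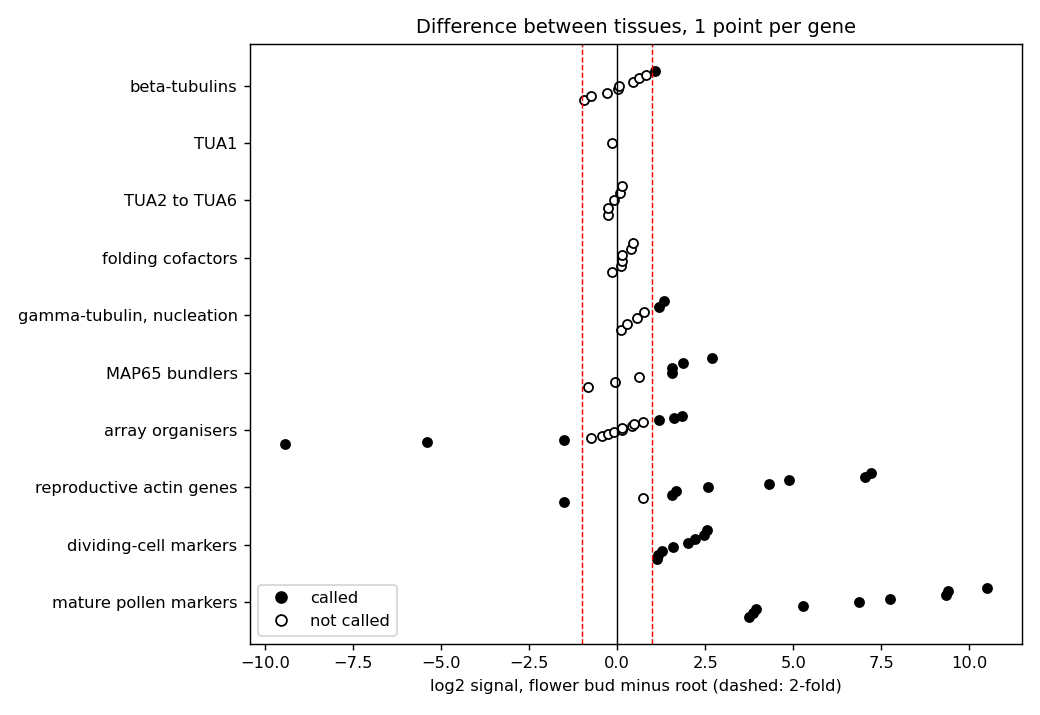
Difference (log2 signal, flower bud minus root) of each tested gene, 1 point per gene, for the tubulins, 5 further gene lists and the marker lists of dividing cells and mature pollen; filled points were called and dashed lines mark 2-fold. Fitted values are plotted, also for genes below background in roots. The tubulin points lie between -0.94 and 1.06, with TUB7 the 1 call, while other lists reach -9.43 and 10.51.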

How the data were processed

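Spot intensity on a linear scale was extracted by the authors with Agilent Feature Extraction 10.10.1.1, per the file headers, with background subtracted within each array and no scaling between arrays. The deposited value table held log2 values. Set against the scanner files (r of at least 0.99999 per array), it matched log2 signal centred per probe, which settled its scale, centring and direction. Its scaling between arrays was close to the 75th percentile but not equal to it, since the median difference of all genes moved by 0.03. The labels do not describe how it was made. Its column medians were -0.0105, 0.0948, 0.0898 and 0.0252 for roots 1 to 4 and -0.00796, -0.0549, -0.0407 and -0.0582 for buds 1 to 4.

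Control spots were dropped, as were outlier spots (6 to 191 per array). No spot was saturated. Spots of a probe were averaged as log2 and the 75th percentile of the array was subtracted. Of 43603 probes, 34267 matched 1 locus in the RefSeq gene table through their accessions and 9336 matched none. Symbols follow the gene lists. The table gives AT5G05620 as GCP2 and no such symbol for AT4G39110 (BUPS1) or AT5G17410 (GCP2 in the lists). Testing required signal well above background on every array of 1 tissue or of both. Tissue was fitted with limma 3.58.1 in R 4.3.3 (lmFit, eBayes), adjusted over all genes tested. The fit was checked on simulated data. Normexp used the median spot signal in place of the mean signal that was planned. Replicates are pools, each on its own array, so p-values measure the spread between pools and their arrays, and the number of arrays limits the precision.

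Members and lists were chosen with earlier results of these data known. Named genes are all members with every probe, TUA2 to TUA6, TUBG1 and TUBG2, and, of each other list, the 2 calls of greatest size in each direction. PFI, TTN1 and MAP65-9 were named after their values were seen. The nearest genes in pattern were to be named only for members with a difference of at least 4-fold, which no member had. Whether same-numbered replicates pair was not settled: the correlations of their deviations were -0.127, 0.104, 0.103 and 0.127. Between different numbers they ran from -0.305 to 0.299. Root replicates 3 and 4 correlated best with their own number, and root replicates 1 and 2 with bud replicate 3.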

Additional observations from a re-analysis of the deposited data

Results flagged for a closer look

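Values that stood apart within a group of 4 arrays were sought among 42 groups, the chosen and the other probes of the members in each tissue, and chance gives such a value in about 1 of 20 groups. There were 3. TUB8 read 2.25 on flower bud replicate 4, below the other bud arrays, with a gap to the nearest array of 0.860 of the whole range. The second TUB1 probe (A_84_P810453) read -2.68 on flower bud replicate 3, above the other buds and by 0.865 of the range, and the chosen TUB1 probe was also highest among buds on that array, at 0.40. The second TUB2 probe (A_84_P858473) read -0.22 on root replicate 1, below the other roots and by 0.966 of a range that was itself small, with an SD of 0.06.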

How the results depend on the processing

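Over 19 alternatives, 190 values of the members were recomputed: 163 kept their direction and their side of the call, 12 became calls, 3 stopped being calls and 12 turned in direction. All 12 that turned belonged to TUB6, TUB8, TUB9 and TUA1. Arrays centred on the median gave -0.082 for TUB6 and -0.11 for TUB8. Scaling on the 5 reference genes gave 0.074 for TUB9 and 0.23 for TUA1, and the mean of all probes gave -0.29 for TUB6. Without root replicate 4, TUB6 was at -0.041, TUB8 at -0.13 and TUA1 at 0.00079. TUB8 was at -0.0037, -0.024 and -0.014 without bud replicates 1, 2 and 3, and TUB6 at -0.039 without bud replicate 3. Over all 8 arrays left out in turn, TUB6 ranged from -0.041 to 0.12, TUB8 from -0.13 to 0.14 and TUA1 from -0.25 to 0.00079. The count of members called, 1, became 2 with scaling on the reference genes (TUB3 and TUB7), 2 with the mean of all probes (TUB1 and TUB7), 0 after normexp and 7 with no minimum fold. Leaving out 1 replicate gave 1 to 2, and with 2 of these the calls were TUB1 and TUB7, without root replicate 3 or 4. With arrays centred on the median and without bud replicate 3 the 1 call was TUB1 in place of TUB7. Of the member probes, 4 were called, 2 after normexp, 15 with no minimum fold and 4 to 5 without 1 replicate. Of the genes in the 6 other lists, 20 were called and 33 with no minimum fold. The cause of these changes was not tested, except that dropping the minimum fold adds calls by construction. Scaling on the reference genes moved the median of all genes by 0.38, centring on the median by -0.13 and normexp by -0.13. Calls higher in buds were 54.2% of all calls, 64.2% on the reference scale, 50.6% with median centring, 48.5% after normexp, 48.7% with dim probes kept and 46.4% with signal above background required on all 8 arrays, and all calls numbered 18273 with no minimum fold against 12243. Same-numbered arrays shared a column of the slide, and whether they shared plants was not stated. The replicate block called 12198 genes and TUB7 among the members, with 7 members passing. Root replicate 1 correlated best with bud replicate 3 (0.299), while root replicates 3 and 4 correlated best with their own numbers.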
